A study of Mus musculus with 10 samples.

Results

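The genes described here are 10 growth arrest genes of the p53 pathway and the Gadd45 family: Trp53 and Mdm2, the p53 target genes Cdkn1a, Phlda3, Ccng1, Zmat3 and Sesn2, and the 3 family members Gadd45a, Gadd45b and Gadd45g. They were taken by gene name from a table of 57010 genes, and all 10 were among the 18966 genes with enough counts to be tested. The names were chosen by pathway with earlier results of these libraries in view, among them the levels of Cdkn1a and Phlda3 in rested cells, higher in knockout than in control. The genotype difference at rest is therefore described without a test.

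RNA was sequenced in bulk from splenic CD8+ T cells of 5 mice, 2 libraries from each. Knockout mice (Dusp2fl/fl-E8I-cre+/-, called cKO, 3 mice) carry floxed Dusp2 and a cre driven by the E8I enhancer of the Cd8 locus, which is active in mature CD8+ T cells. Control mice (Dusp2fl/fl-E8I-cre-/-, 2 mice) carry the same floxed Dusp2 without cre, so loss of Dusp2 and the presence of cre cannot be told apart. Cells were activated for 24 h with beads carrying antibodies to CD3 and CD28, or rested for 24 h in the same medium without beads. The cKO mice 1 and 2 and control mouse 1 were male, and cKO mouse 3 and control mouse 2 were female; no age is given in the labels. Both libraries of cKO mouse 3 have titles that go against their own characteristics and library names, which were followed here.

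The libraries held 51203786 to 65135435 counts. Levels are given in CPM, counts scaled to a common library size by TMM (a trimmed mean over genes), and comparisons between genes in FPKM, which also divides by gene length. Dusp2 itself averaged 51.8 ± 5 CPM in activated cKO cells and 295 ± 4.86 CPM in activated control cells, and 26 ± 1.87 CPM in rested cKO cells and 92.6 ± 6.78 CPM in rested control cells (SD, n = 3 and 2). The summed level of 10 CD8 T cell markers was 3904 to 4525 CPM over all libraries. Marker lists of other cell types were also detected: 7 CD4 and regulatory T cell markers summed to 430 to 525 CPM in activated and 20.3 to 30.6 CPM in rested libraries, with Cd4 itself at most 1.22 CPM. B cell markers summed to 230 to 371 CPM, stromal and endothelial markers to 66.3 to 161 CPM, erythroid and platelet markers to 16.6 to 29.5 CPM and myeloid markers to 10.2 to 18.9 CPM. In bulk RNA, fewer cells of a type and less RNA per cell cannot be told apart.

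The transcription factor p53, the product of Trp53, is kept low by the ubiquitin ligase MDM2 and accumulates after DNA damage and other stress. It then switches on genes that halt the cell cycle, repair DNA, restrain growth signals or start cell death, and Mdm2 itself is such a target, which closes a feedback loop. Several of these genes also answer to other signals: Cdkn1a to growth factor and antigen receptor signals, Sesn2 to amino acid and endoplasmic reticulum stress, and Gadd45b to NF-κB. GADD45 proteins bind the kinase MTK1, which feeds the p38 and JNK cascades. In T cells GADD45b and GADD45g are known for sustaining p38 signalling and interferon gamma production. DUSP2, also called PAC-1, is a nuclear phosphatase that removes the activating phosphates of MAP kinases, and its gene has been described as a p53 target in human cells.

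In the coordinates of the deposited table (mm39), the p53 genes are Trp53 at chr11:69471185-69482699 and Mdm2 at chr10:117524780-117546663. The targets are Cdkn1a at chr17:29309950-29319701, Phlda3 at chr1:135693857-135696874, Ccng1 at chr11:40639379-40646138, Zmat3 at chr3:32388941-32420163 and Sesn2 at chr4:132219343-132237812. The Gadd45 genes lie apart, Gadd45a at chr6:67012080-67014441, Gadd45b at chr10:80765907-80768038 and Gadd45g at chr13:52000714-52002504. All 10 are protein-coding.

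Upstream sequences are shown for Cdkn1a, Gadd45b and Gadd45g, since Cdkn1a and Gadd45b had the highest activated levels per length and Gadd45g is the family member nearest to Gadd45b in its upstream motifs. They are 200 bases long, end 1 base before the annotated start, and are read 5′ to 3′ on the plus strand of GRCm38.p6, from RefSeq. Capitals mark p53 half-sites in the first sequence, TATAA in the second, and CACGTG and TATAA in the others.
Cdkn1a start 1, chr17:29090779-29090978: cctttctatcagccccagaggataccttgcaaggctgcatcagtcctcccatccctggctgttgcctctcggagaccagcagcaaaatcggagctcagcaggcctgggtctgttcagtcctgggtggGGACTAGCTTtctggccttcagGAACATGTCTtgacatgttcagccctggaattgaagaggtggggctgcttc
Cdkn1a start 2, chr17:29093569-29093768: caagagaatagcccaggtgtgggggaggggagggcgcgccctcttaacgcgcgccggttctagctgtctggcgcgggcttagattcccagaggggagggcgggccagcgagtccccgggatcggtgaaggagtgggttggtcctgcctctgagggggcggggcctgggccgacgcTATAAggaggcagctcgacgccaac
Gadd45b, chr10:80929891-80930090: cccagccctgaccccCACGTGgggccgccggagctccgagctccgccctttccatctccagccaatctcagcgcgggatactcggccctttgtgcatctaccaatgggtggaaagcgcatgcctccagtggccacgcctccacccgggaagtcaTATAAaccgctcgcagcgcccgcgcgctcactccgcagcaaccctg
Gadd45g, chr13:51846475-51846674: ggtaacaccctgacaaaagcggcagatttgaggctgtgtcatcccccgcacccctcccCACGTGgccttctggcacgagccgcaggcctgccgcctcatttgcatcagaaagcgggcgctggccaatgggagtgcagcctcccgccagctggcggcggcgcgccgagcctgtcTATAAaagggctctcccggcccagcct

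Windows of 250 bases before to 50 bases after a start were at hand for 9 of the 10 genes, with a pair of starts for Cdkn1a and so 10 windows. They were searched on both strands for the p53 half-site, TATAA, the E-box CACGTG and the AP-1 motif TGANTCA. Upstream of the first Cdkn1a start, half-sites began at positions -73 and -51, counted back from the start. The windows of Mdm2, Trp53, Ccng1 and Gadd45a held 1 half-site each, at -186, -75, -185 and -40. TATAA lay at -25 for the second Cdkn1a start, at -46 for Gadd45b and at -27 for Gadd45g, and CACGTG at -185 for Gadd45b and at -142 for Gadd45g. TATAA was also found at -227 for the first Cdkn1a start and at -247 for Trp53, and CACGTG at position 11 past the Trp53 start. None of the 4 motifs was found for Phlda3 or Sesn2, and TGANTCA in none of the 10 windows. Of 32851 windows of the same length, 8.36% held a p53 half-site, 24.9% TATAA, 7.15% CACGTG and 7.81% TGANTCA. These are matches of letters and say nothing of binding.

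Activation moved nearly all of these genes in both genotypes. In cKO cells 8 of the 10 rose and 1 fell after activation, where 63.4% of all genes tested changed (31.5% higher, 31.9% lower). In control cells 8 rose and 1 fell as well, where 56.1% of all genes changed (28.5% higher, 27.6% lower). Mdm2 did not pass the test and Gadd45a was the gene that fell. The median log2 fold change of the 10 was 1.64 in cKO cells and 1.73 in control cells, beside -0.01 and -0.00 over all genes. Of the 10, 7 also had a log2 fold change of at least 1 either way in each genotype, where 24.5% of all genes did in cKO and 21.8% in control cells. Activated libraries lay above rested ones without overlap for 8 genes in each genotype, where 33.5% of all genes did in cKO and 38.7% in control cells. They lay below without overlap for 1 gene in cKO (33.3% of all genes) and 2 in control cells (38.1%). DESeq2 and limma each called 9 of the 10 in both genotypes. Calls are edgeR quasi-likelihood tests with p-values adjusted by Benjamini and Hochberg over all 18966 genes.

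**Figure D1:**
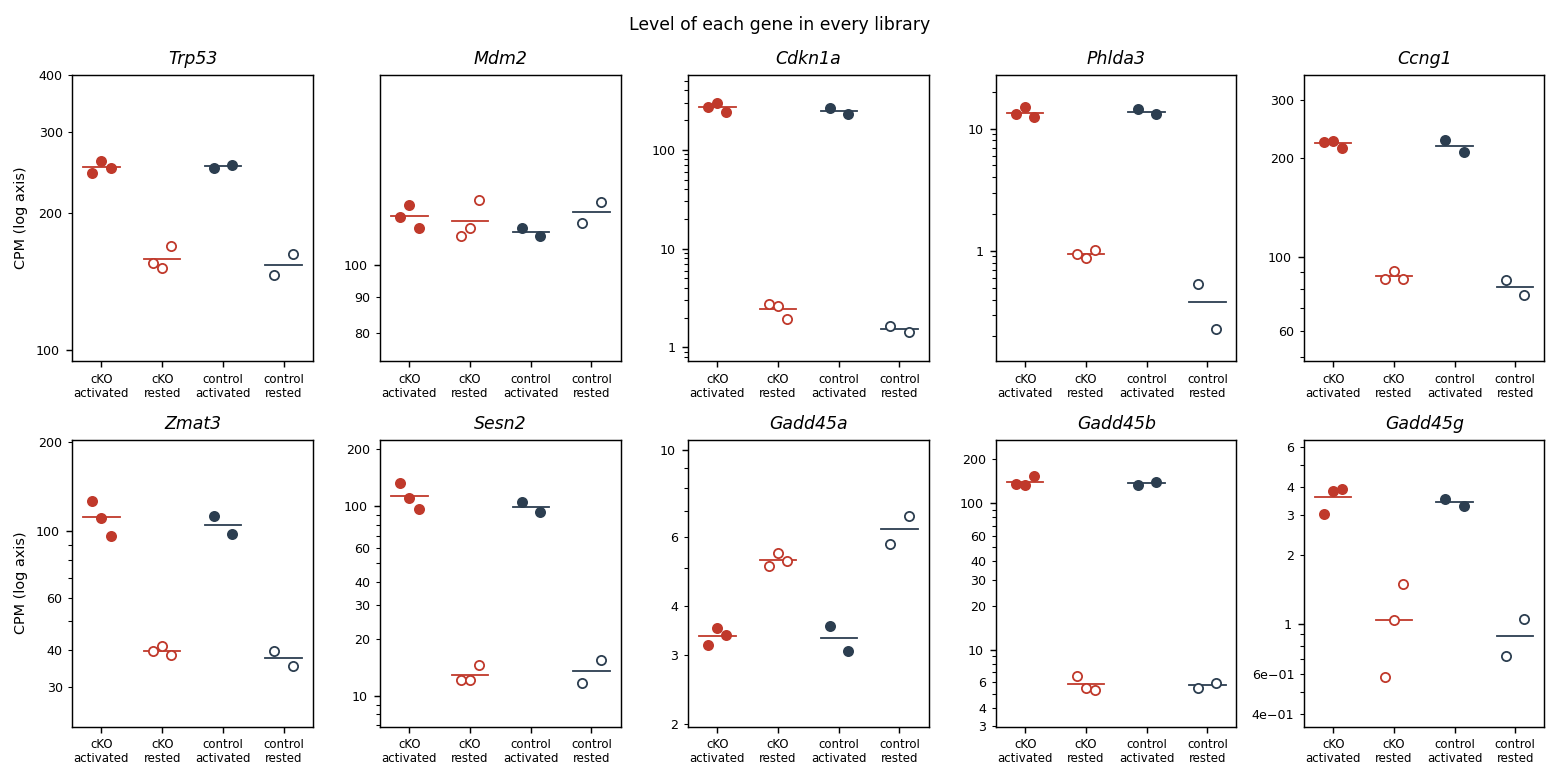
Each panel plots 1 gene's level in CPM (log axis, its own scale) in all 10 libraries, with filled points for activated cells, open points for rested cells and a line at the group mean. Cdkn1a lies at 228 to 295 CPM in activated libraries and at 1.42 to 2.77 CPM in rested ones, while Mdm2 lies at 110 to 124 CPM throughout.

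Trp53 rose modestly. It had 244, 260 and 250 CPM in activated libraries of cKO mice 1, 2 and 3, against 155, 151 and 169 CPM in their rested libraries, and 251 and 255 CPM in activated libraries of control mice 1 and 2, against 146 and 162 CPM at rest. All activated libraries lay above all rested ones. Its log2 fold change was 0.67 ± 0.05 in cKO cells and 0.72 ± 0.07 in control cells (SE, edgeR adjusted p = 1.27e-07 and 7.78e-07).

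Mdm2, the p53 ligase and feedback target, kept near the same level. It had 117, 122 and 113 CPM in activated cKO libraries, against 110, 113 and 124 CPM in rested ones, and the ranges overlapped. Activated control libraries had 113 and 110 CPM, against 115 and 123 CPM at rest, so both lay slightly lower after activation. In log2 terms the change was 0.02 in cKO cells (95% interval -0.11 to 0.14, edgeR adjusted p = 0.799) and -0.10 in control cells (-0.25 to 0.05, adjusted p = 0.254).

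Cdkn1a encodes p21, which binds and inhibits cyclin-dependent kinases, and it had the largest fold change of the 10 in both genotypes. The cKO mice 1, 2 and 3 had 272, 295 and 243 CPM after activation, against 2.77, 2.61 and 1.95 CPM at rest. The control mice had 264 and 228 CPM after activation, against 1.63 and 1.42 CPM at rest. Activated and rested libraries were far apart. The increase was 111-fold in cKO cells (log2 6.79 ± 0.08, edgeR adjusted p = 3.88e-15) and 162-fold in control cells (log2 7.34 ± 0.10, adjusted p = 3.53e-14), which ranked 74 and 54 from the top among all genes tested. The rested libraries held 80 to 150 Cdkn1a counts each and the activated libraries 14475 to 17095.

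Phlda3 encodes a small protein with a PH domain that competes with AKT for membrane lipids and so dampens AKT. It had 13.1, 15 and 12.5 CPM in activated cKO libraries, against 0.943, 0.87 and 1.01 CPM in rested ones, and 14.4 and 13.1 CPM in activated control libraries, against 0.531 and 0.231 CPM at rest. Activated cells of the genotypes lay together, and the rested libraries did not. The log2 fold change was 3.84 ± 0.17 in cKO cells and 5.16 ± 0.23 in control cells (edgeR adjusted p = 6.53e-10 and 1.82e-09). The rested values rest on few reads, 47, 50 and 55 counts in cKO libraries and 31 and 13 counts in control libraries.

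Ccng1, which encodes cyclin G1, a p53-induced partner of the phosphatase PP2A, had 224, 225 and 215 CPM in activated cKO libraries, against 85.9, 90.7 and 86.1 CPM in rested ones. In control libraries it had 226 and 208 CPM after activation, against 85.4 and 76.7 CPM at rest. The states did not overlap, and the log2 fold change was 1.34 ± 0.05 in cKO cells and 1.42 ± 0.06 in control cells (edgeR adjusted p = 1.69e-10 and 1.39e-09). Zmat3, an RNA-binding zinc finger protein, had 127, 111 and 96.7 CPM in activated cKO libraries, against 39.7, 41.2 and 38.4 CPM in rested ones. It had 113 and 98 CPM in activated control libraries, against 39.7 and 35.4 CPM at rest. Its log2 fold change was 1.48 ± 0.06 in cKO cells and 1.49 ± 0.08 in control cells (edgeR adjusted p = 6.79e-10 and 9.16e-09), again with no overlap.

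Sesn2 encodes sestrin 2, a leucine-binding inhibitor of the growth kinase complex mTORC1. It had 132, 111 and 96.7 CPM in activated cKO libraries, against 12.2, 12.1 and 14.6 CPM in rested ones, and 105 and 92.7 CPM in activated control libraries, against 11.7 and 15.4 CPM at rest. Every activated library was far above every rested one, and in CPM the spread was widest in activated cKO cells. The SD was 17.8 CPM around a mean of 113 CPM there, and 2.64 CPM around 13.5 CPM in rested control cells. Sesn2 rose by 3.12 ± 0.16 in cKO cells and 2.87 ± 0.19 in control cells on the log2 scale (edgeR adjusted p = 2.45e-07 and 2.50e-06).

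The Gadd45 genes went separate ways. Gadd45b rose steeply, with 135, 133 and 152 CPM in activated cKO libraries, against 6.66, 5.46 and 5.31 CPM in rested ones. In control libraries it had 133 and 140 CPM after activation, against 5.52 and 5.94 CPM at rest. The log2 fold change was 4.59 ± 0.09 in cKO cells and 4.58 ± 0.11 in control cells (edgeR adjusted p = 5.29e-13 and 6.99e-12), and per mouse it ran between 4.34 and 4.84 in cKO and between 4.56 and 4.59 in control mice.

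Gadd45g rose from a low level, with 3.04, 3.83 and 3.9 CPM in activated cKO libraries, against 0.582, 1.04 and 1.49 CPM in rested ones, and 3.53 and 3.3 CPM in activated control libraries, against 0.72 and 1.05 CPM at rest. The states did not overlap, but the rested cKO libraries, with 29, 60 and 81 counts, differed among themselves more than for any other of these genes relative to their mean. The log2 fold change was 1.80 ± 0.24 in cKO cells and 1.98 ± 0.30 in control cells (edgeR adjusted p = 1.73e-05 and 7.40e-05). Gadd45a fell, with 3.19, 3.52 and 3.38 CPM in activated cKO libraries, against 5.08, 5.48 and 5.22 CPM in rested ones, and 3.56 and 3.08 CPM in activated control libraries, against 5.76 and 6.81 CPM at rest. Each activated library was below each rested one. The log2 fold change was -0.65 ± 0.13 in cKO cells and -0.92 ± 0.16 in control cells (edgeR adjusted p = 6.48e-04 and 2.27e-04). The lncRNA gene E230016M11Rik, which overlaps Gadd45a by 859 bases, averaged 0.404 CPM in activated and 1.08 CPM in rested libraries.

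**Figure D2:**
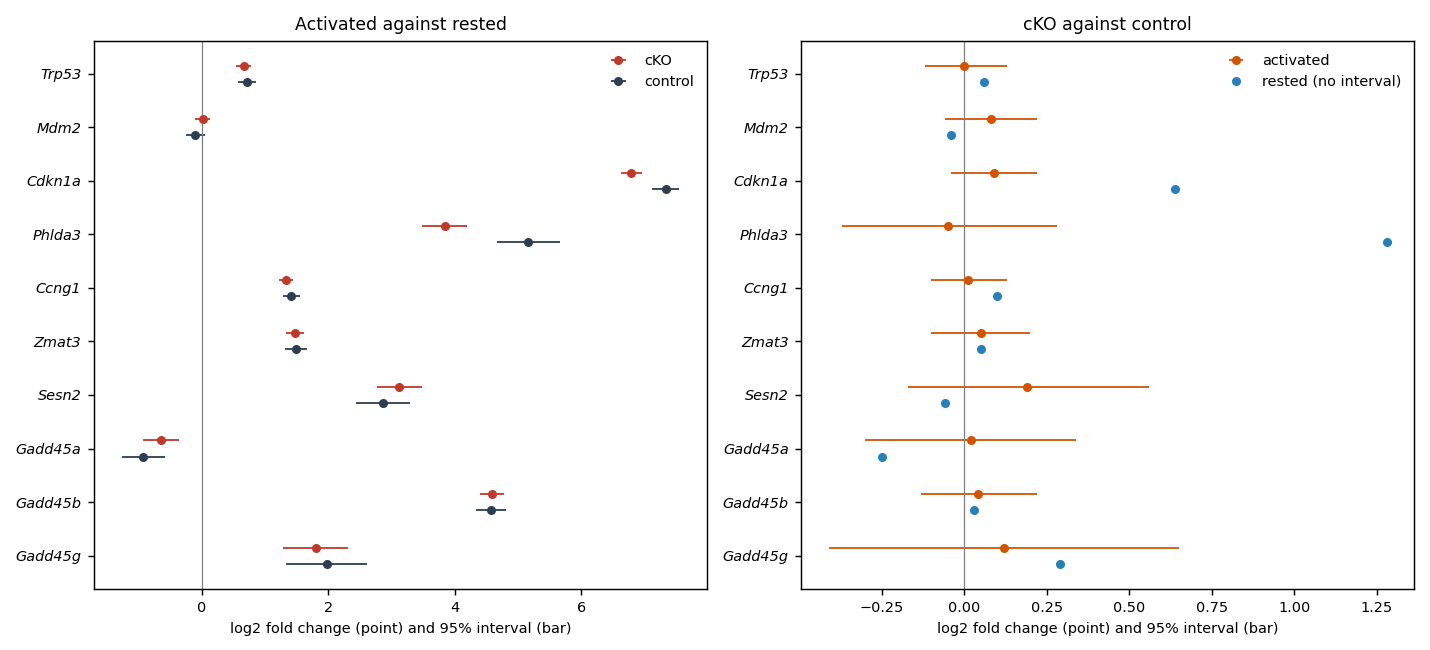
The left panel plots each gene's log2 fold change of activated against rested cells with its 95% interval, for cKO and control cells; the right panel plots cKO against control, with an interval for activated cells only. Cdkn1a, Gadd45b, Phlda3 and Sesn2 stand farthest to the right on the left panel, and on the right panel Cdkn1a (0.64) and Phlda3 (1.28) at rest stand apart from the other points.

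Per length, activation changed which of the genes was most abundant. In activated cKO cells Gadd45b averaged 90.2 FPKM and Cdkn1a 77.7 FPKM, above Ccng1 at 64.4 and Trp53 at 63.6 FPKM, which overlapped each other. Sesn2 (33.3 FPKM), Mdm2 (23.6 FPKM), Zmat3 (9.99 FPKM), Phlda3 (8.89 FPKM), Gadd45g (3.13 FPKM) and Gadd45a (1.95 FPKM) followed, with overlap between libraries for Zmat3 and Phlda3 alone among these neighbours. In rested cKO cells Trp53 led with 38.3 FPKM, then Ccng1 (24.4 FPKM) and Mdm2 (22.3 FPKM), which overlapped. Sesn2 (3.65 FPKM), Gadd45b (3.57 FPKM), Zmat3 (3.4 FPKM) and Gadd45a (2.91 FPKM) came next, with Gadd45a below the libraries of Zmat3. Gadd45g, Cdkn1a and Phlda3 were lowest at rest, at 0.867, 0.672 and 0.591 FPKM, each overlapping its neighbour. Control cells had the same order within these overlaps, apart from Gadd45a, which overlapped Gadd45b and Zmat3 at rest, and from Gadd45g, Cdkn1a and Phlda3, which stood apart from one another at 0.735, 0.419 and 0.238 FPKM.

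**Figure D3:**
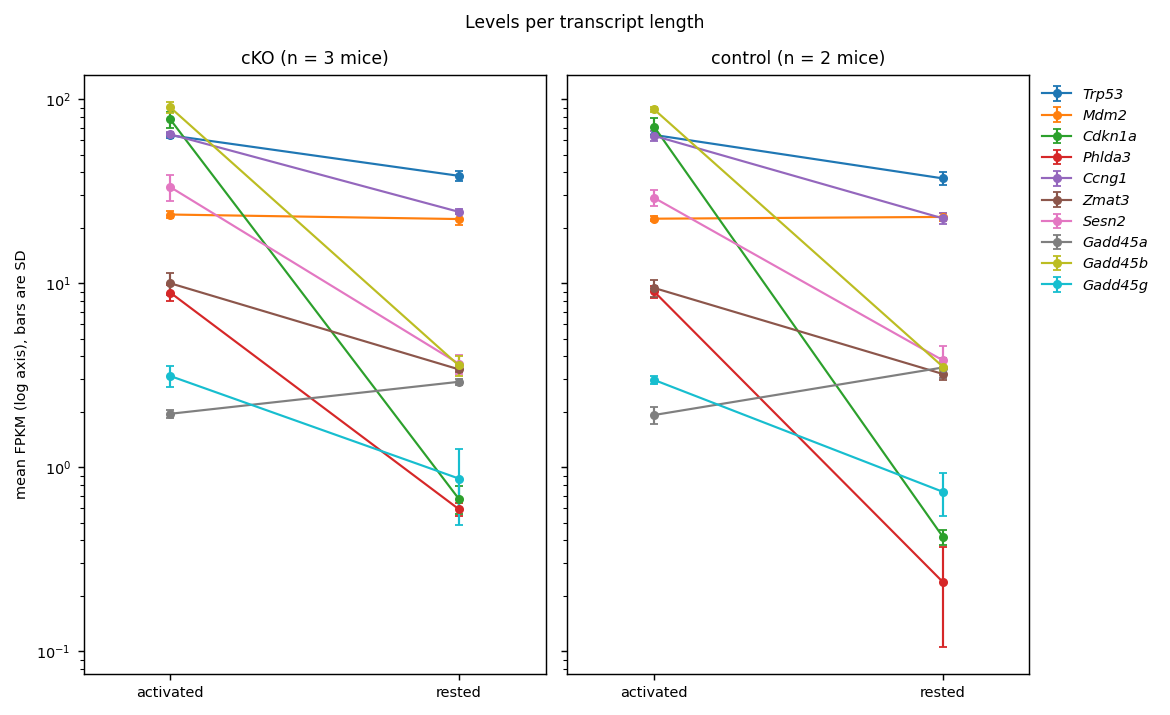
Lines join the mean FPKM (log axis, bars SD) of each gene in activated and rested cells, with cKO mice (n = 3) on the left and control mice (n = 2) on the right. The lines of Gadd45b and Cdkn1a cross those of Trp53, Ccng1 and Mdm2, and the line of Mdm2 is nearly level.

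The genotypes were then compared in activated cells. Of the 10 genes, 0 passed the test between cKO and control, by edgeR, DESeq2 or limma, and 0 had an unadjusted edgeR p under 0.05. Over all genes 0.0422% passed, 8 of 18966, and 6.02% had an unadjusted p under 0.05. The activated libraries of the genotypes overlapped for every one of the 10, while 7.7% of all genes were higher and 9.36% lower in cKO cells without overlap, and edgeR adjusted p-values ran between 0.849 and 0.993. For 9 of the 10 the log2 difference was above 0, where 50.7% of all genes were, and the median over the 10 was 0.05, beside 0.00 over all genes. For Cdkn1a it was 0.09 (95% interval -0.04 to 0.22), for Gadd45b 0.04 (-0.13 to 0.22), for Trp53 0.00 (-0.12 to 0.13) and for Mdm2 0.08 (-0.06 to 0.22). The intervals were widest for Gadd45g (0.12, -0.41 to 0.65), Sesn2 (0.19, -0.17 to 0.56) and Phlda3 (-0.05, -0.37 to 0.28). Within males and within females, Cdkn1a was 1.07-fold as high in cKO as in control activated cells in each. Of 25 proliferation markers, 24 had a log2 difference above 0 in activated cKO cells, with a median of 0.35 and 0 called. Activated libraries of the genotypes overlapped for Mki67, with 13.4 to 29.3 CPM in cKO and 13.2 to 16.6 CPM in control. They also overlapped for Ccna2, with 2.95 to 8.2 CPM in cKO and 2.69 to 4.77 CPM in control.

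At rest, Cdkn1a and Phlda3 differed most between the genotypes, the pattern that entered the choice of these genes. Cdkn1a had 2.77, 2.61 and 1.95 CPM in rested cKO libraries, against 1.63 and 1.42 CPM in rested control libraries, a log2 difference of 0.64 (0.31 by limma on log2(FPKM + 0.5)). Phlda3 had 0.943, 0.87 and 1.01 CPM in rested cKO libraries, against 0.531 and 0.231 CPM in rested control libraries, a log2 difference of 1.28 (0.55 by limma on that scale). The added 0.5 FPKM shrinks differences of genes this low. For both genes each cKO library lay above each control library. Within sexes, cKO cells had 1.65 times the control level of Cdkn1a in males and 1.38 times in females, and 1.71 and 4.4 times for Phlda3. The Phlda3 difference hangs on which control mouse is used, with a log2 difference of 1.96 without control mouse 1 and 0.84 without control mouse 2.

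Of the other 8 genes at rest, Ccng1 was higher in cKO libraries without overlap (log2 difference 0.10) and Gadd45a lower without overlap (-0.25). Together 3 of the 10 were higher without overlap, where 8.96% of all genes were, and 1 was lower, where 8.69% were. In all 7 of the 10 had a log2 difference above 0, where 51.3% of all genes did. Both counts of higher genes include Cdkn1a and Phlda3, whose difference at rest entered the choice of the genes. These counts are therefore a description and no test, and apart from Cdkn1a and Phlda3 only Ccng1 was higher without overlap. Trp53 (0.06), Mdm2 (-0.04), Zmat3 (0.05), Sesn2 (-0.06), Gadd45b (0.03) and Gadd45g (0.29) overlapped between the genotypes. The signs of Trp53, Sesn2, Gadd45b and Gadd45g turned when 1 mouse was left out. The summed level of 17 NK and innate-like lymphocyte markers was 78.3, 55.2 and 46.1 CPM in rested cKO libraries, against 51.9 and 28.3 CPM in rested control libraries, with overlap. In activated cells it was 166, 124 and 165 CPM in cKO and 92.7 and 73.3 CPM in control libraries, without overlap. Of its 16 tested markers 12 were higher in cKO cells at rest and 11 after activation, 0 called, and Ncr1 was under 0.1 CPM throughout. Klrb1c of that list had 0.644 to 1.06 CPM in rested cKO and 0.479 to 0.72 CPM in rested control libraries. After activation it had 0.135 to 0.311 CPM in cKO and 0.134 to 0.256 CPM in control libraries, while the sum was higher than at rest. Other lists leaned the same way at rest. Of 6 tested B cell markers 6 were higher in rested cKO cells (median log2 difference 0.34), with summed levels of 330, 295 and 371 CPM in cKO and 287 and 348 CPM in control libraries, which overlapped. Of 7 CD4 and regulatory T cell markers 5 were higher (median 0.32), with sums of 30.6, 21.4 and 25.5 CPM in cKO and 21.9 and 20.3 CPM in control libraries, again overlapping. Cd4 itself had 0.678 to 1.22 CPM in rested cKO and 0.16 to 0.326 CPM in rested control libraries, without overlap, and 0 markers of either list were called. The part of these 3 marker lists in the Cdkn1a and Phlda3 values was not tested.

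Whether activation changed a gene by a different amount in cKO than in control cells was tested as an interaction. Of the 10, 0 passed by edgeR, DESeq2 or limma, and over all genes 0% passed (0 of 18966). At an unadjusted edgeR p under 0.05 there were 2 of the 10, Cdkn1a and Phlda3, and 2.74% of all genes. Their log2 interactions were -0.54 ± 0.12 and -1.32 ± 0.30, a smaller rise in cKO cells, each with an adjusted p of 1. Without the filter on low counts the Phlda3 interaction was called, at -1.31 with an edgeR adjusted p of 0.00474. The interaction holds the difference at rest that entered the choice of the genes, so it is no separate evidence. Per mouse, Cdkn1a moved by 6.62 to 6.96 in cKO and by 7.33 to 7.34 in control mice on the log2 scale, and Phlda3 by 3.63 to 4.11 and by 4.76 to 5.83.

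Other genes of the pathway moved both ways with activation. In cKO cells 37 of 59 tested p53 targets outside the 10 rose and 14 fell, where 31.5% of all genes rose and 31.9% fell. In control cells 35 rose and 12 fell, where 28.5% of all genes rose and 27.6% fell. The median log2 fold changes of the 59 were 0.64 in cKO and 0.78 in control cells. Among cell cycle and repair targets 11 of 16 rose and 5 fell in cKO cells, and 10 rose and 4 fell in control cells. Plk2, a polo-like kinase, rose by a log2 fold change of 3.81 ± 0.16 in cKO and 3.50 ± 0.19 in control cells, and Rps27l, a ribosomal protein relative, by 2.17 ± 0.08 and 2.12 ± 0.09 (edgeR adjusted p at most 1.24e-08 for these). Among apoptosis targets 14 of 18 rose and 2 fell in cKO cells, and 13 rose and 1 fell in control cells. The exonuclease gene Aen averaged 160 ± 4.58 CPM in activated and 41.7 ± 1.39 CPM in rested cKO cells, and the death receptor gene Fas 47.7 ± 3.77 and 14 ± 1.93 CPM. Among metabolism and other targets 12 of 25 rose and 7 fell in each genotype. The thiamine transporter gene Slc19a2 rose by 2.05 ± 0.06 in cKO and 2.06 ± 0.08 in control cells. Cyfip2 of that list had a log2 fold change of -0.76 ± 0.05 in cKO and -0.70 ± 0.06 in control cells.

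Relatives of the 10 genes moved both ways. Sesn1, the sestrin gene best known as a p53 target, fell by 1.46 in cKO and by 1.47 in control cells on the log2 scale, and Sesn3 fell by 0.62 and by 0.51 (edgeR adjusted p at most 1.48e-05). Ccng2, which encodes cyclin G2, fell by 1.42 and by 1.35. Phlda1, a relative of Phlda3, rose by 2.57 ± 0.17 in cKO and 2.70 ± 0.21 in control cells (edgeR adjusted p = 1.90e-08 and 2.04e-07). In the list of sestrin and cyclin G relatives, which also holds relatives of Phlda3, Zmat3 and Mdm2, 2 of 7 rose and 5 fell in each genotype, where 31.9% of all genes fell in cKO and 27.6% in control cells. Among the other inhibitors of cyclin-dependent kinases 1 of 6 rose and 2 fell in each genotype. Over all genes 31.5% rose and 31.9% fell in cKO cells, and 28.5% rose and 27.6% fell in control cells. Cdkn1b, which encodes p27, averaged 155 ± 34.7 CPM in activated and 487 ± 31.4 CPM in rested cKO cells, and 166 ± 29.3 and 489 ± 20.1 CPM in control cells. Its log2 fold change was -1.67 ± 0.10 in cKO and -1.57 ± 0.12 in control cells (edgeR adjusted p = 4.78e-08 and 7.28e-07). Cdkn2d, which encodes p19 of the INK4 family, fell by 1.02 and by 1.13, and Cdkn2b rose by 1.88 and by 2.35 at levels of at most 1.92 CPM on average.

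Of 17 tested regulators of p53, 6 rose and 7 fell in cKO cells, and 7 rose and 7 fell in control cells. Over all genes, 31.5% rose and 31.9% fell in cKO cells, and 28.5% rose and 27.6% fell in control cells. Chek1, a checkpoint kinase gene, rose by 2.83 ± 0.13 in cKO and 2.93 ± 0.16 in control cells, while Mdm4, the MDM2 relative that masks p53, fell by 0.62 and by 0.51. Among 18 genes of the GADD45 partners and the p38 and JNK cascade, 10 rose and 6 fell in cKO cells, and 9 rose and 5 fell in control cells. Map2k3, a kinase that activates p38, averaged 227 ± 25.3 CPM in activated and 64 ± 4.12 CPM in rested cKO cells, and 216 ± 8.13 and 62.1 ± 2.94 CPM in control cells. Of the 25 proliferation markers 21 rose and 1 fell in cKO cells, and 20 rose and 1 fell in control cells. Heat shock genes rose too, 12 of 12 in cKO and 10 of 12 in control cells. Of 13 mitochondrially encoded genes 0 rose and 1 fell in cKO cells, and 1 rose and 1 fell in control cells. In neither genotype comparison did edgeR call a gene of these lists. Of the 59 p53 targets, 3 after activation and 7 at rest had an unadjusted edgeR p under 0.05. Over all genes 6.02% and 4.13% had one. The lists were chosen with earlier results of these data known, so the count at rest is a description and no test.

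**Figure D4:**
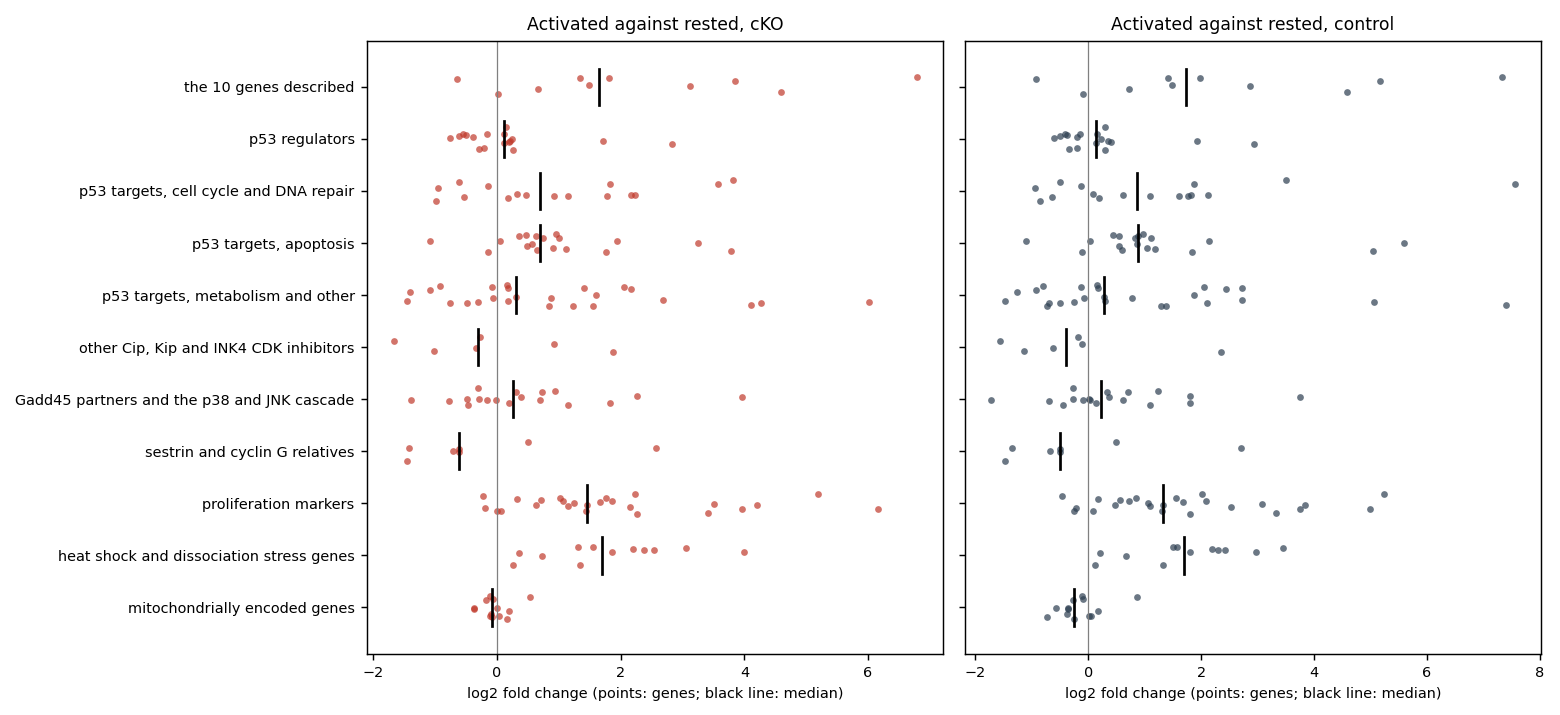
Points are genes and black lines list medians, on a horizontal axis of log2 fold change of activated against rested cells, in cKO cells on the left and control cells on the right. The 10 genes described have medians of 1.64 and 1.73, and the sestrin and cyclin G relatives lie mostly below 0, with medians of -0.62 and -0.51.

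The genes nearest in pattern were found for 5 of the 10, by the root mean square difference over the 10 libraries of log2(CPM + 0.5), each gene centred on its own mean. Nearest to Cdkn1a were Tnfrsf9, which encodes the costimulatory receptor 4-1BB (0.16), Cd83 (0.29) and the transcription factor gene Egr3 (0.30). Their log2 differences between rested cKO and rested control cells were 0.66, 0.55 and 0.48, beside 0.64 for Cdkn1a, values that the likeness itself uses. Nearest to Phlda3 were Smim3 (0.22), Pde4a (0.24) and Ybx3 (0.24). Nearest to Gadd45b were Cd160 (0.12), the unnamed gene ENSMUSG00000121015 (0.12) and Mir155hg (0.15). Fitted activation log2 fold changes in cKO and control cells were 4.59 and 4.58 for Gadd45b and 4.79 and 4.81 for Mir155hg. They were larger for Cd160 (6.08 and 6.20) and ENSMUSG00000121015 (8.04 and 8.39). Gadd45g lay nearest to the NF-κB pathway genes Relb (0.14) and Nfkbia (0.15) and to Isg15 (0.15), and Gadd45a to Mir7050 (0.06), Rdh12 (0.07) and Tuba1a (0.07). The added 0.5 CPM draws genes of low level together.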

How the data were processed

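Libraries were made from total RNA with a stranded mRNA kit, per the labels' protocols. The submitters' processing notes name mm39 as build, with Subread, FastQC and MultiQC; versions, settings, annotation and strand use were not given in the sources used here. Whole-number counts were deposited for each gene and were not normalized. The authors' deposited FPKM values served for levels between genes and for limma. The deposited gene lengths were not used in tests. Spans of Cdkn1a, Trp53, Sesn2 and Gadd45a overlap 1 other gene each in the table, at most 1.08 CPM on average in a state.

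Counts were fitted in R 4.3.3 with edgeR 4.0.16 (TMM, filterByExpr, robust quasi-likelihood, group means plus sex, all 10 libraries, biological coefficient of variation 9.14%); genes with an adjusted p under 0.05 over all genes tested count as changed. DESeq2 1.42.0, limma 3.58.1 on log2(FPKM + 0.5) and Python 3.11.15 served for alternatives and tables, and the fits were tested on simulated data. CPM are not adjusted for sex, while fitted fold changes are. Each mouse is its own animal, and no pair of replicate libraries agreed within sampling noise. Sex coincides with the number that starts the animals' library names (116 male, 119 female), so effects of sex and of that number cannot be told apart.

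The members and lists were chosen with earlier results of these data known. All 10 members are named, and of each list up to 4 genes with the smallest activation p. Lists share a few genes. The activated and rested libraries of a mouse pair by design, with correlations of 0.22 to 0.5 between their deviations from group means; with 2 control mice, both give 1 and the same value. Alternatives were other scaling, filters, no sex term, a mouse replicate block, other tools and leaving out each mouse. Sequences were not used for Zmat3.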

Additional observations from a re-analysis of the deposited data

How the results depend on the processing

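The counts of changed genes among the 10 were 9 in each genotype for activation under the alternatives run, except 8 of 9 tested with a 5 CPM filter and 7 with a minimum log2 fold change of 1. Between genotypes in activated cells 0 were called under each. A paired fit with a mouse replicate block left 9, 9 and 0 for activation in cKO, in control and the interaction. For the interaction, without the low-count filter 1 gene was called, Phlda3 (-1.31, edgeR adjusted p = 0.00474). The cause was not tested. This interaction holds the difference at rest that entered the choice of the genes, so the call is no separate evidence. Without the filter, the edgeR adjusted p of Phlda3 activation in cKO cells was also smaller, 1.00e-130 against 6.53e-10 with it. The Phlda3 interaction was -1.94 without control mouse 1 and -0.90 without control mouse 2.

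Signs turned for differences near 0 that were not called. On leaving out each mouse, Mdm2 activation in cKO cells ran between -0.01 and 0.09. For cKO against control in activated cells the ranges were -0.13 to 0.01 for Phlda3, -0.03 to 0.04 for Trp53, -0.02 to 0.06 for Ccng1, -0.02 to 0.09 for Zmat3, -0.08 to 0.13 for Gadd45a and -0.14 to 0.44 for Gadd45g. For the interaction they were -0.11 to 0.04 for Trp53, -0.10 to 0.07 for Zmat3, -0.05 to 0.56 for Sesn2, -0.11 to 0.15 for Gadd45b and -0.47 to 0.18 for Gadd45g. For cKO against control at rest they were -0.01 to 0.09 for Trp53, -0.30 to 0.16 for Sesn2, -0.09 to 0.12 for Gadd45b and -0.02 to 0.52 for Gadd45g; signs held for the other 6, with Gadd45a at -0.39 to -0.14 and Cdkn1a at 0.56 to 0.72. At rest limma on log2(FPKM + 0.5) gave 0.31 for Cdkn1a and 0.55 for Phlda3, and with 0.1 added 0.52 and 1.05. Trp53 in activated cells was -0.01 without the sex term and -0.00044 with the compared groups alone. The Zmat3 interaction was 0.01 with DESeq2 size factors, without the filter and by DESeq2, 0.00063 without the sex term and 0.00011 by limma. With 2 control mice, and 13 to 55 Phlda3 counts per rested library, small differences at rest are poorly fixed.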
